A study of Mus musculus with 157 samples.

Results

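Ribosome-associated mRNA of primary mouse B cells was compared without and with DNA damage by etoposide. The comparison covers 104 of the 157 fraction libraries of the study, which are fractions 4 to 16 of the 4 LPS gradients (52 libraries) and of the 4 LPS+ET gradients (52 libraries). Members were chosen by column name, which holds the treatment, the fraction number and 1 of 4 pool tags (LUL15, LUL16, LUL17 or LUL18). The counts of the 13 fractions were added up for each gradient, so that a value mixes monosomes, light and heavy polysomes. By the methods, libraries were made from equal RNA concentrations of each fraction, so a fraction weighs by its sequencing depth and not by its RNA. Fold changes are relative to the other genes of a gradient. The study reports that etoposide lowered polysome assembly globally, a change that such relative values do not show.

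B cells were obtained from spleens of C57BL/6Babr mice with a B cell isolation kit and kept in LPS (10 µg/ml) for 48 h in both groups. LPS+ET cells had etoposide at 20 µM for 4 h, and LPS cells did not. By the methods etoposide was added after the 48 h, while a legend for another assay places it in the last 4 h. Whether LPS cells were kept as long in total is not stated, so a difference in culture time cannot be told apart from etoposide. Cells of both groups met cycloheximide (100 µg/ml) for 3 min before cytoplasmic extracts were layered on sucrose. The methods call the 4 gradients of a group biological replicates. The mice of the study were 8 to 12 weeks old. Sex and the number of mice behind a gradient are not given in the sources used here, so p-values measure the spread between these gradients, part of which may be technical. The third treatment of the series, etoposide after the ATM inhibitor KU55933, entered the fit for its estimate of the spread and is not described.

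LPS binds the Toll-like receptor TLR4 of B cells and drives them into division and towards antibody secretion. Etoposide holds topoisomerase II on cut DNA, and the resulting double-strand breaks activate the kinase ATM and the transcription factor p53. p53 switches on arrest, repair and death genes, and through p21 it brings retinoblastoma family complexes to the promoters of cell cycle genes. An mRNA counted here sedimented with monosomes or polysomes. In such bulk data, fewer cells of a type and less RNA per cell cannot be told apart, and neither can a change in mRNA amount and a change in ribosome association.

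Gradient totals lay between 6404957 counts (LPS+ET, pool LUL16) and 19436253 counts (LPS, pool LUL16). The LPS+ET gradient of pool LUL16 stood apart from the other gradients compared. Its heavy polysome fractions held 30.42% of its counts, against 52.27 to 68.22% in the other 7. Class counts are therefore mostly given with their range over 12 fits that each left out 1 of the 8 gradients or 1 of the 4 pools. Each range given for a class is over these fits, and an end of a range that names no fit is the count of the fit of all pools. Of 10 B cell markers, 6 were lower in LPS+ET and 0 were higher. Their summed level ran from 7451 to 10448 CPM (counts scaled to the total of the gradient) in LPS and from 7768 to 10245 CPM in LPS+ET. Most of this sum was Cd74, the only marker of the list with a higher mean in LPS+ET than in LPS. The 8 T cell markers together had 132 to 160.3 CPM in LPS and 113 to 299.8 CPM in LPS+ET, most of it Lck, with 0 of 5 tested called and Cd3g and Cd8a near 0. The 10 myeloid markers summed to 37.1 to 91.9 CPM in LPS and 57.6 to 179 CPM in LPS+ET, 1 of 9 tested was higher (6 without pool LUL16, with a median of 1.11), and Mpo was at 0 in LPS. NK cell markers stayed under 0.6 CPM in sum, with Eomes at 0 in LPS+ET. Erythroid and platelet markers summed to 57.7 to 66.3 CPM in LPS and 41.4 to 93.7 CPM in LPS+ET, most of it Hbb-b2 (1 of 3 higher, Alas2 at 0 in LPS). Stromal and endothelial markers summed to 62.8 to 94.8 and 18.1 to 31 CPM (1 of 2 lower). Most of that sum was Pecam1 (means of 75.2 CPM in LPS and 23.2 CPM in LPS+ET), while Cdh5 had 2.48 and 2.76 CPM. The part of these cells in the results below was not tested.

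A large part of the ribosome-associated transcriptome differed between LPS+ET and LPS cells. Of 12755 genes tested, 3403 (26.7%) passed the edgeR test at 0.01 after Benjamini-Hochberg adjustment, 1772 higher (13.9%) and 1631 lower (12.8%) in LPS+ET. Rises were larger than falls, with a median log2 fold change of 1.41 among the genes called higher and -0.90 among those called lower. Changes beyond 4-fold (2 on the log2 scale) were made by 545 genes that rose and 58 that fell. In 3308 of the 3403 called genes the 4 pools moved in 1 direction. The test pairs gradients by pool, so it favours such genes, and the count is no separate support for the calls. The p53 targets of a reference list, 46 of 55 of them higher and 2 lower, made up 46 of the 1772 rises, which left 1726 rises outside that list.

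The share called lower was smallest among the least abundant genes, and the share called higher was smallest among the most abundant. When the tested genes were split by mean CPM into 10 groups of equal size, the lowest group (0.402 to 1.16 CPM) had a median log2 fold change of 0.53. In it, 13.6% were called higher and 1.41% lower. In the highest group (129 CPM and more), 7.29% were higher and 20.6% lower, with a median of -0.17. In groups 5 and 6 the shares were about equal (14.4% higher and 13.9% lower, 15.8% and 16.2%). A gene with few counts could pass the expression filter through 1 treatment alone, and it has little room to be called lower. The part of this in these contrasts, and in the larger size of the rises, was not tested. Protein coding genes gave 1681 of the rises and 1538 of the falls. Of 253 lincRNAs, 24 were higher and 30 lower.

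**Figure D1:**
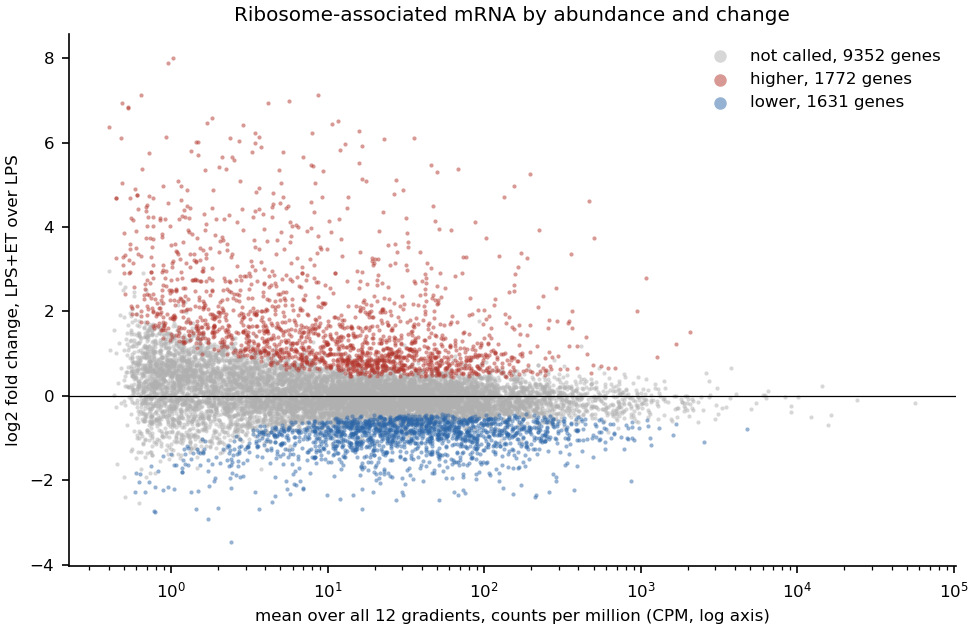
Each point is 1 of 12755 genes, with mean CPM over all 12 gradients of the fit on a log axis and the log2 fold change of LPS+ET over LPS on the vertical axis. Points called higher reach further from zero than points called lower, and the share called lower is greatest among the abundant genes.

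Apart from the p53 targets, 56 functional classes were examined, with 2088 tested genes of which 567 were called. They are described by counts and medians, beside a median log2 fold change of 0.00 over all genes tested. Without pool LUL16 the shares of all genes rose to 19.9% called higher and 21.1% lower, beside which class counts without that pool have to be read. Values of single genes are given per gradient in the order of pools LUL15, LUL16, LUL17 and LUL18, or as mean ± SD of 4 gradients. Fold changes are log2 values of the edgeR fit with their SE, and a p quoted "without" a pool or gradient is that of the fit which left it out.

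**Figure D2:**
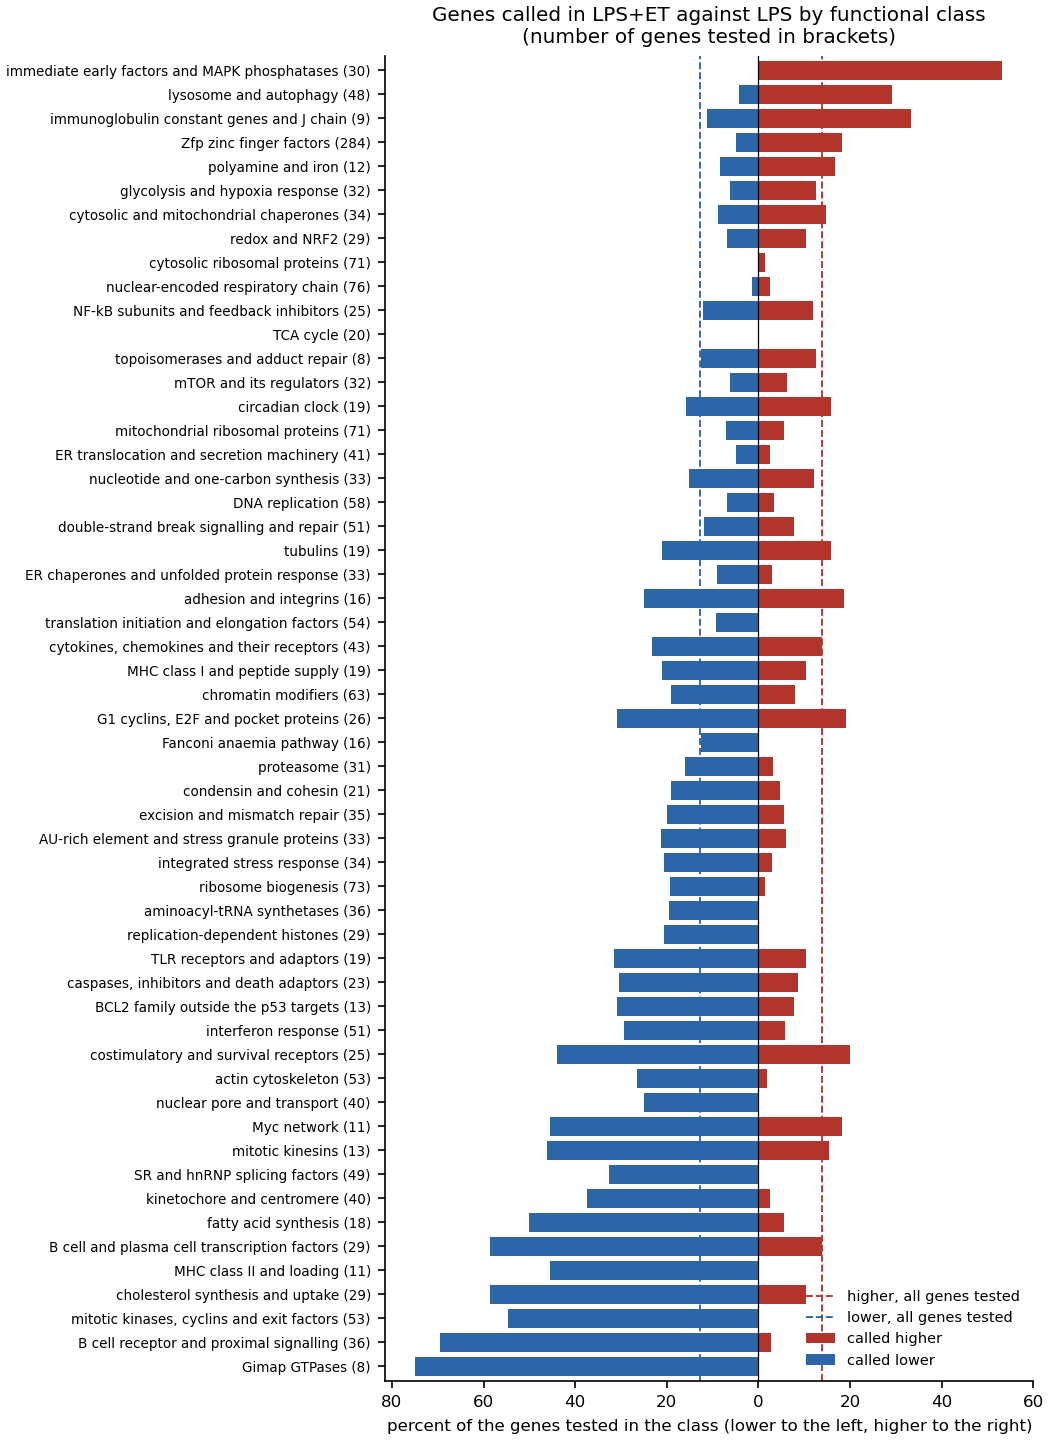
Bars give the percent of tested genes in each class that were called higher (red, to the right) or lower (blue, to the left), for classes with 8 or more genes tested. Dashed lines mark the shares over all genes, 13.9% higher and 12.8% lower. Gimap GTPases, B cell receptor signalling, mitotic, cholesterol and B cell factor genes reach furthest to the left, and the immediate early factors furthest to the right.

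Many genes of mitosis fell, while genes of DNA replication mostly did not pass the test. Of 53 mitotic kinases, cyclins and exit factors, 29 were lower and 0 higher, with a median of -0.92, and the class ranged from 0 to 2 (without pool LUL16) genes higher. The count lower was between 16 (without pool LUL18) and 34 (without pool LUL16) when 1 gradient or pool was left out. The whole class took 0.504 ± 0.0284% of all counts in LPS and 0.298 ± 0.0487% in LPS+ET. Of 40 kinetochore and centromere genes, 15 were lower and 1 higher (median -0.38), and the count lower was between 7 (without pool LUL15) and 20 (without pool LUL16), and the class ranged from 0 (without pool LUL17) to 4 (without pool LUL16) genes higher. DNA replication genes stood at 4 lower and 2 higher of 58 (median -0.04), shares below those of all genes. Without pool LUL16 these became 15 lower and 7 higher, with a median of -0.02, and the share lower was then not below that of all genes. The lowest counts were 1 lower (without LPS LUL18) and 0 higher (without LPS LUL15).

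Cdkn3 (ENSMUSG00000037628, chr14:46760540-46771524), a phosphatase that acts on CDK1 and CDK2, had 55.0, 64.0, 49.6 and 69.9 CPM in LPS and 12.8, 10.9, 9.78 and 12.4 CPM in LPS+ET. All 4 LPS+ET gradients lay far below the lowest LPS gradient (log2 fold change -2.47, SE 0.14, adjusted p = 1.84e-08). Plk1 (ENSMUSG00000030867, chr7:122159436-122169874), the kinase that drives mitotic entry and spindle assembly, had 455, 490.0, 482 and 435 CPM in LPS and 156, 76.8, 81.0 and 76.0 CPM in LPS+ET. The groups did not overlap, and the LPS+ET gradient of pool LUL15 lay above the other 3 treated gradients (log2 fold change -2.40, SE 0.26, adjusted p = 7.63e-06). Cdk1 (ENSMUSG00000019942, chr10:69336634-69352937), the master mitotic kinase and the most abundant member, had 513, 770.0, 314 and 529.7 CPM in LPS and 252, 212, 148 and 243 CPM in LPS+ET. It was lower in LPS+ET in each pool (log2 fold change -1.34, SE 0.24, adjusted p = 0.000524). Fam64a, a regulator of the metaphase to anaphase step, went from 21.8 ± 3.56 to 4.74 ± 2.31 CPM (log2 fold change -2.44, SE 0.34, adjusted p = 7.46e-05).

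The cell cycle genes homology region, whose common form reads TTTGAA, and the CCAAT box, which binds NF-Y, are known elements of the promoters of mitotic genes. Both were searched on either strand of 300 bases per promoter (250 before and 50 after the RefSeq start site, GRCm38.p6), and matches of the 2 motifs may share letters where they adjoin. TTTGAA was in the promoters of 28 of 44 mitotic kinase and cyclin genes that had an entry (63.6%), of 15 of 32 kinetochore genes (46.9%) and of 10 of 12 mitotic kinesin genes (83.3%). It was in 16.7% of DNA replication promoters, in 13.9% of the 8893 tested genes with an entry and in 20.2% of all 27025 genes in the RefSeq set. CCAAT was in 77.3% of the mitotic kinase and cyclin promoters, in 43.5% of those of tested genes and in 41.1% of all. Among the tested mitotic kinase and cyclin genes, 17 of 26 with TTTGAA were lower (median -0.98) and 7 of 15 without it (median -0.67). Kinetochore genes did not split this way, with 5 of 15 lower with it and 6 of 16 without it. Nor did mitotic kinesins, with 4 of 10 and 2 of 2. Of DNA replication genes, 2 of 8 and 2 of 39 were lower. Over all tested genes with an entry, 196 of 1236 with TTTGAA and 970 of 7657 without it were lower. A match is a description of the letters and not a bound site.

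The promoters of 3 mitotic genes that fell (Cdkn3, Plk1, Cdk1) and of a mitotic gene that rose (Kif18b) are shown 5′ to 3′ on the strand of the gene, with both motifs and their reverse complements in capitals. Positions are chr14:46760291-46760590, plus strand for Cdkn3; chr7:122159185-122159484, plus strand for Plk1; chr10:69352863-69353162, minus strand for Cdk1 and chr11:102925075-102925374, minus strand for Kif18b.
Cdkn3: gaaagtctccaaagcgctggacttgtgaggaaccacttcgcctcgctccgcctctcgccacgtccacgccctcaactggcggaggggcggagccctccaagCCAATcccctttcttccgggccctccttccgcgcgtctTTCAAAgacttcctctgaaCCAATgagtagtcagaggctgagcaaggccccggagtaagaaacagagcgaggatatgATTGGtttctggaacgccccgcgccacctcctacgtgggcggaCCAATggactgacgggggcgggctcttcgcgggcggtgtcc
Plk1: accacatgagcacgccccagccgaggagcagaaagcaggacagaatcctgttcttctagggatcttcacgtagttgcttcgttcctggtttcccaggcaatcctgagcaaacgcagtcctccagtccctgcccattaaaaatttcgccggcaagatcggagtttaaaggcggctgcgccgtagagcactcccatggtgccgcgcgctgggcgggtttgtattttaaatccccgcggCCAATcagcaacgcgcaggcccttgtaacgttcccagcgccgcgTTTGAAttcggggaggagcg
Cdk1: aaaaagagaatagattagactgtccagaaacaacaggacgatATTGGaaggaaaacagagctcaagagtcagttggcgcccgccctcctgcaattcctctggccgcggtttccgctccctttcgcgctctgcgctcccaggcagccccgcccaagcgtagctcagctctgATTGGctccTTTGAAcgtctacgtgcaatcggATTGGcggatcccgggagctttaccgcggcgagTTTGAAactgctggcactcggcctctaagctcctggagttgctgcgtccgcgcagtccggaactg
Kif18b: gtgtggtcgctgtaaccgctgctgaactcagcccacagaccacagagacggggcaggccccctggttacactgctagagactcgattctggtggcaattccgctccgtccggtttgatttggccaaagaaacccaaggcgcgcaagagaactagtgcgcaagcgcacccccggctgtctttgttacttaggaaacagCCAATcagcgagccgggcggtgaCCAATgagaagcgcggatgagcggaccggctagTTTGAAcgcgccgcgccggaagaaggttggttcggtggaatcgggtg
The Cdkn3 window held 1 TTTGAA and 4 CCAAT matches, that of Plk1 1 and 1, and that of Cdk1 2 and 3. The Kif18b window held 1 and 2, so the letters stood in the window of a gene that rose as well as in those of genes that fell. The TTTGAA match of Kif18b and that of Plk1 lay after the start site, from base 4 and base 31.

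**Figure D3:**
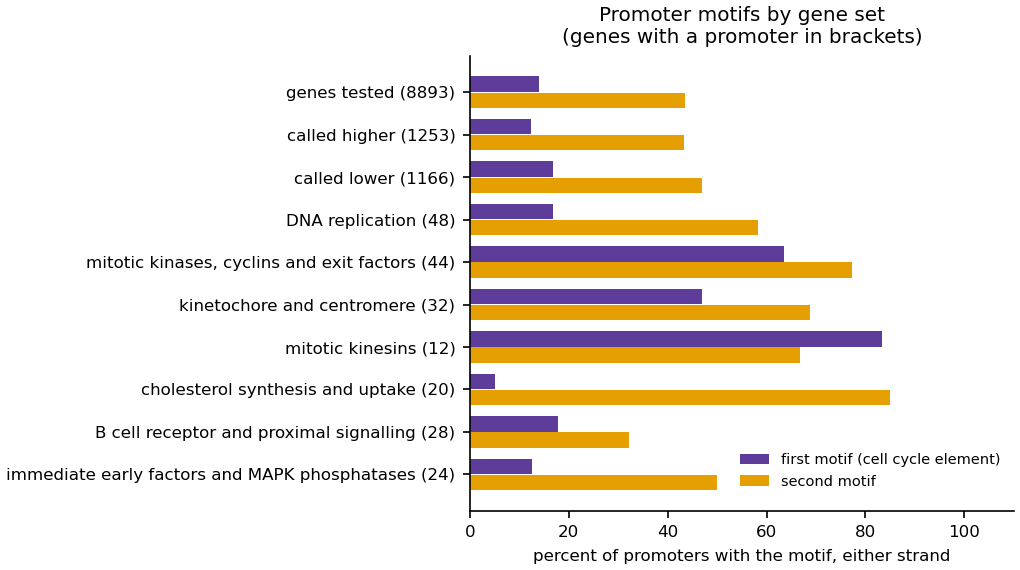
Bars give the percent of 300-base promoters that hold the first motif (TTTGAA, purple) or the second (CCAAT, orange) on either strand, by gene set. The first motif is in 63.6% of mitotic kinase and cyclin promoters and in 13.9% of those of all tested genes, and the second is in 85.0% of the promoters of cholesterol genes.

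Mitotic kinesins, the motors that move chromosomes and shape the spindle, were split, with 6 lower and 2 higher of 13. The count lower was between 2 (without LPS LUL17) and 9 (without pool LUL16) when 1 gradient or pool was left out, while the count higher stayed at 2. Kif18b (ENSMUSG00000051378, chr11:102905528-102925123), which shortens astral microtubules, had 11.4, 13.7, 12.8 and 11.6 CPM in LPS and 45.9, 40.9, 41.1 and 44.4 CPM in LPS+ET. It rose in all 4 pools by a similar amount (log2 fold change 1.68, SE 0.14, adjusted p = 5.86e-07). Kifc1, a minus-end motor that gathers spindle poles, had 77.2 ± 4.15 CPM in LPS and 270.1 ± 17.6 CPM in LPS+ET (log2 fold change 1.69, SE 0.12, adjusted p = 2.03e-07). Kifc1 has a near-identical copy, Kifc5b, whose counts moved the same way, so the split of tags between them is uncertain. Kif22, the chromokinesin Kid, moved the other way (-1.10 ± 0.14). Among kinetochore genes, Cenpf (-1.66 ± 0.26) and Oip5 (-1.44 ± 0.21), the latter needed to load the centromeric histone, were among those that fell, whereas Pmf1, the most abundant, was not called (-0.09 ± 0.18). Of 21 condensin and cohesin genes, 4 were lower, among them the cohesin factors Pds5b (-1.52 ± 0.17) and Stag1 (-1.22 ± 0.16), and Esco2, a cohesin acetyltransferase, was higher (0.88 ± 0.17, adjusted p = 0.0123 without pool LUL18), and the class ranged from 2 (without LPS LUL15) to 8 (without LPS LUL16) genes lower and from 0 (without LPS LUL15) to 1 higher.

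In the G1 class, 5 of 26 genes were higher and 8 lower, and the class ranged from 3 (without pool LUL15) to 11 (without pool LUL16) genes lower and from 3 (without pool LUL15) to 8 (without LPS+ET LUL16) higher. The INK4 inhibitors of CDK4 and CDK6 did not move as 1 group. Cdkn2c rose (32.5 ± 4.98 CPM in LPS and 85.1 ± 29.4 CPM in LPS+ET, log2 fold change 1.23, SE 0.17, adjusted p = 6.74e-05) and so did Cdkn2b (1.37 ± 0.28, adjusted p = 0.0196 without pool LUL18), while Cdkn2d fell (-1.29 ± 0.22). Cdk2, the S phase kinase, fell (-0.80 ± 0.18, adjusted p = 0.0149 without pool LUL15). In the replication class, Dbf4, the activator of the origin kinase CDC7, was lower (-0.97 ± 0.12), as was the clamp loader subunit Rfc4 (-0.65 ± 0.17, adjusted p = 0.0386 without pool LUL15), and the origin subunit Orc5 was higher (0.67 ± 0.16, adjusted p = 0.0217 without pool LUL18). Dut, which keeps uracil out of DNA and was the most abundant, differed by 0.07 ± 0.16 and was not called. Of 29 replication-dependent histone genes tested out of 50 in the table, 6 were lower and 0 higher, and the class ranged from 4 (without pool LUL17) to 10 (without pool LUL16) genes lower. The libraries were primed on poly(A), which most of these histone mRNAs lack.

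The target of etoposide itself was among the genes that moved. Top2a (ENSMUSG00000020914, chr11:98992942-99024188), the topoisomerase II of dividing cells, had 3955, 3179, 4796 and 4438 CPM in LPS and 3054, 2266, 1516 and 1824 CPM in LPS+ET. The groups did not overlap, but the call was not stable (log2 fold change -1.10, SE 0.26, adjusted p = 0.00433, and 0.043 without pool LUL18), and it was lost in 7 of 12 fits that left out a gradient or pool. Top2b, the form found in dividing and non-dividing cells, had 109 ± 22.7 CPM in LPS and 91.7 ± 24.1 CPM in LPS+ET and was not called (log2 fold change -0.38, SE 0.12, adjusted p = 0.0215, and -0.44 with adjusted p = 0.0013 without pool LUL16).

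Repair genes were called in both directions. Of 51 genes of double-strand break signalling and repair, 4 were higher (7.84%, below the 13.9% of all genes) and 6 lower (11.8%, below 12.8%), and the class ranged from 1 (without pool LUL17) to 10 (without pool LUL16) genes lower and from 2 (without pool LUL15) to 5 (without pool LUL16) higher. H2afx, which encodes the histone that ATM phosphorylates around breaks, had 103, 79.2, 201 and 164 CPM in LPS and 18.7, 21.1, 45.9 and 35.5 CPM in LPS+ET. Its groups did not overlap (log2 fold change -2.30, SE 0.20, adjusted p = 1.08e-06). Rad52, a factor of strand annealing, rose (11.8 ± 0.83 CPM in LPS and 33.8 ± 5.36 CPM in LPS+ET, log2 fold change 1.39, SE 0.13, adjusted p = 2.25e-06), and so did the recombination gene Rad51d (1.17 ± 0.22, adjusted p = 0.0191 without pool LUL15). Of 35 excision and mismatch repair genes, 2 were higher (5.71%) and 7 lower (20.0%), and the class ranged from 1 (without pool LUL18) to 11 (without pool LUL16) genes lower and from 1 (without LPS LUL17) to 5 (without pool LUL16) higher. Nthl1, a glycosylase for oxidised pyrimidines, rose (17.9 ± 3.68 CPM in LPS and 95.7 ± 40.2 CPM in LPS+ET, log2 fold change 2.17, SE 0.28, adjusted p = 4.19e-05). Of 16 Fanconi anaemia genes, 2 were lower and 0 higher, and the class ranged from 0 (without pool LUL18) to 4 (without pool LUL16) genes lower and from 0 to 1 (without LPS LUL16) higher.

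In the apoptosis classes outside the p53 list, 4 of 13 BCL2 family genes were lower and 1 higher, and 7 of 23 caspase and adaptor genes were lower and 2 higher, and the BCL2 family ranged from 3 (without LPS LUL15) to 4 genes lower and from 1 to 4 (without pool LUL16) higher, and the caspase class ranged from 3 (without pool LUL15) to 8 (without pool LUL16) genes lower and from 2 to 6 (without pool LUL16) higher. Bcl2 (ENSMUSG00000057329, chr1:106538177-106714273), the founding survival factor, had 281, 241, 219.7 and 224 CPM in LPS and 87.8, 94.3, 46.4 and 43.7 CPM in LPS+ET. The highest LPS+ET gradient was far below the lowest LPS gradient (log2 fold change -2.03, SE 0.17, adjusted p = 7.16e-07). The pro-death members went both ways, with Bcl2l11 (BIM) higher (59.2 ± 1.70 CPM in LPS and 125 ± 4.40 CPM in LPS+ET, log2 fold change 0.96, SE 0.14, adjusted p = 0.000123) and Bid lower (68.6 ± 14.6 CPM in LPS and 27.8 ± 7.21 CPM in LPS+ET, log2 fold change -1.41, SE 0.16, adjusted p = 1.26e-05). Mcl1, the most abundant member and a survival factor with a short half-life, was not called (-0.08 ± 0.15). Dffb, the nuclease that cuts DNA between nucleosomes in dying cells, rose (log2 fold change 2.55, SE 0.31, adjusted p = 2.08e-05) from 14.9 ± 1.69 to 112 ± 54.3 CPM, with 31.9 CPM in the LPS+ET gradient of pool LUL16.

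Many genes that define a B cell fell. Of 36 genes of the B cell receptor and its proximal signalling, 25 were lower and 1 higher (median -0.88), and the count lower was between 15 (without pool LUL18) and 28 (without pool LUL16) when 1 gradient or pool was left out, and the class ranged from 1 to 3 (without pool LUL16) genes higher. The class medians of the 4 pools, each relative to all genes of its pool, were -0.74, -0.71, -0.75 and -0.88. Cd22 (ENSMUSG00000030577, chr7:30865401-30880341), an inhibitory coreceptor, had 436, 369.5, 444 and 396 CPM in LPS and 101, 191, 60.5 and 56.1 CPM in LPS+ET. The LPS+ET gradient of pool LUL16 was the highest of its group, and still below all LPS gradients (log2 fold change -2.34, SE 0.25, adjusted p = 8.15e-06). Bank1, an adaptor that carries signals from the receptor to calcium release, had 745 ± 36.5 CPM in LPS and 197 ± 104 CPM in LPS+ET (log2 fold change -2.24, SE 0.25, adjusted p = 1.18e-05), and Vav2, an exchange factor for small GTPases, had 58.3 ± 12.5 CPM in LPS and 15.3 ± 6.96 CPM in LPS+ET (log2 fold change -2.08, SE 0.23, adjusted p = 9.17e-06).

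Of 29 B cell and plasma cell transcription factors, 17 were lower and 4 higher (median -1.04), and the class ranged from 2 (without LPS LUL15) to 4 genes higher. The count lower was between 15 (without pool LUL18) and 19 (without pool LUL16) with 1 gradient or pool left out, and the pool medians were -1.0, -1.05, -0.77 and -0.89. Ikzf1 (ENSMUSG00000018654, chr11:11685002-11772925), which encodes Ikaros, a zinc finger factor required for the lymphoid lineage, had 149, 129, 151 and 149 CPM in LPS and 35.8, 27.8, 31.7 and 26.9 CPM in LPS+ET. The 2 groups were tight and far apart (log2 fold change -2.36, SE 0.15, adjusted p = 6.37e-08). Klf2, a factor of lymphocyte quiescence and trafficking, had 229 ± 75.8 CPM in LPS and 64.7 ± 49.1 CPM in LPS+ET (log2 fold change -2.19, SE 0.20, adjusted p = 1.77e-06), and Pou2af1 (OBF-1), the octamer coactivator and most abundant member, had 1346 ± 192 CPM in LPS and 721 ± 259 CPM in LPS+ET (log2 fold change -1.04, SE 0.23, adjusted p = 0.00256, and 0.0193 without pool LUL18). Against this trend, Id2 (ENSMUSG00000020644, chr12:25093800-25096091), an inhibitor of E proteins such as E2A, had 9.42, 6.12, 9.76 and 5.66 CPM in LPS and 41.6, 43.6, 34.2 and 30.2 CPM in LPS+ET. It rose in each pool (log2 fold change 2.18, SE 0.17, adjusted p = 3.09e-07). Bcl11a, a B lineage factor outside the lists, was among the largest falls of the table (323 ± 28 CPM in LPS and 69.5 ± 7.65 CPM in LPS+ET, log2 fold change -2.33, SE 0.13, adjusted p = 1.76e-08).

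The Gimap genes encode GTPases of lymphocyte survival that lie in 1 cluster on chromosome 6. Of 8 tested, 6 were lower and 0 higher (median -1.27), and the class took 0.287 ± 0.0275% of all counts in LPS and 0.0951 ± 0.0123% in LPS+ET. The count lower was between 5 (without LPS LUL15) and 7 (without LPS LUL16). Gimap4 (ENSMUSG00000054435, chr6:48684548-48692059) had 1684, 1624, 1453 and 1665 CPM in LPS and 472, 518, 358 and 393 CPM in LPS+ET. The groups lay far apart (log2 fold change -2.02, SE 0.15, adjusted p = 2.03e-07). Gimap3 (-2.29 ± 0.14) and Gimap7 (-1.32 ± 0.22) fell as well.

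Other immune classes moved in part. Of 11 MHC class II genes, 5 were lower and 0 higher, and the count lower was between 2 (without pool LUL15) and 7 (without pool LUL16). Ciita, the coactivator that controls the class, fell (72.4 ± 6.74 CPM in LPS and 26 ± 8.74 CPM in LPS+ET, log2 fold change -1.66, SE 0.19, adjusted p = 1.48e-05), whereas H2-Eb1, at 17861 ± 3311 CPM in LPS and 14172 ± 3357 CPM in LPS+ET, was not called (log2 fold change -0.46, SE 0.16, adjusted p = 0.0345, and -0.51 with adjusted p = 0.000249 without pool LUL16). Of 19 MHC class I genes, 2 were higher and 4 lower, with the peptide transporter Tap1 at 0.73 ± 0.12, adjusted p = 0.0103 without pool LUL15 and the class Ib molecule H2-M3 at -1.12 ± 0.12, and the class ranged from 2 (without pool LUL15) to 5 (without LPS LUL16) genes lower and from 0 (without pool LUL15) to 5 (without pool LUL16) higher. Of 19 Toll-like receptor genes, 6 were lower and 2 higher, led by Tlr1 (-1.64 ± 0.15), Cd180 (-1.63 ± 0.14), a TLR4 relative counted here at an intronic site, and Tlr7 (-1.09 ± 0.18), and the class ranged from 5 (without LPS LUL15) to 11 (without pool LUL16) genes lower and from 0 (without LPS LUL15) to 3 (without LPS LUL16) higher. Of 25 costimulatory and survival receptor genes, 11 were lower and 5 higher, and the class ranged from 9 (without LPS LUL15) to 14 (without pool LUL16) genes lower and from 3 (without LPS+ET LUL18) to 7 (without LPS+ET LUL16) higher. Fcer2a (CD23), the low-affinity IgE receptor, fell (59.8 ± 6.36 CPM in LPS and 19.4 ± 4.94 CPM in LPS+ET, log2 fold change -1.76, SE 0.17, adjusted p = 2.11e-06), while the ligand Cd80 (3.17 ± 0.863 CPM in LPS and 16.0 ± 5.73 CPM in LPS+ET, log2 fold change 2.18, SE 0.18, adjusted p = 5.86e-07) and Tnfrsf18 (GITR, 3.44 ± 0.661 CPM in LPS and 29.4 ± 8.88 CPM in LPS+ET, log2 fold change 2.97, SE 0.26, adjusted p = 1.04e-06) rose from low levels.

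Of 51 interferon response genes, 15 were lower and 3 higher, and the count lower was between 6 (without pool LUL18) and 20 (without pool LUL16), and the class ranged from 2 (without LPS LUL15) to 7 (without pool LUL16) genes higher. The antiviral genes Ifit3 (-2.28 ± 0.24) and Samd9l (-1.68 ± 0.22) fell and the GTPase Igtp rose (1.86 ± 0.24). Of 43 cytokine, chemokine and receptor genes, 10 were lower and 6 higher, with falls of the lymphotoxin subunit Ltb (-2.28 ± 0.28), the sphingosine receptor S1pr4 (-1.63 ± 0.14) and the chemokine receptor Ccr6 (-1.29 ± 0.14). Ccr6 was counted mainly at a site outside its annotated gene. The class ranged from 5 (without LPS LUL18) to 15 (without pool LUL16) genes lower and from 3 (without LPS LUL17) to 8 (without pool LUL16) higher. NF-kB genes were close to the share of all genes, with 3 higher and 3 lower of 25, and the inhibitor Nfkbia was not called (0.04 ± 0.14), and the class ranged from 3 to 5 (without pool LUL16) genes lower and from 1 (without pool LUL15) to 5 (without pool LUL16) higher. Immunoglobulin constant genes did not move together. Of 9 with the J chain, 3 were higher, Ighg1 at 1.27 ± 0.15, Ighg2c at 1.07 ± 0.16 and Igha at 1.08 ± 0.20, adjusted p = 0.0144 without pool LUL18, and the class ranged from 0 (without LPS LUL15) to 2 (without pool LUL16) genes lower and from 2 (without pool LUL15) to 4 (without LPS LUL16) higher. The fourth called, Ighg2b, was lower, and these genes are similar enough in sequence that tags may be misplaced. The light chain gene Igkc, at 54974 ± 16046 CPM in LPS and 64459 ± 42488 CPM in LPS+ET, was not called (log2 fold change -0.16, SE 0.28, adjusted p = 0.679), and its means and its fitted change differ in sign.

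**Figure D4:**
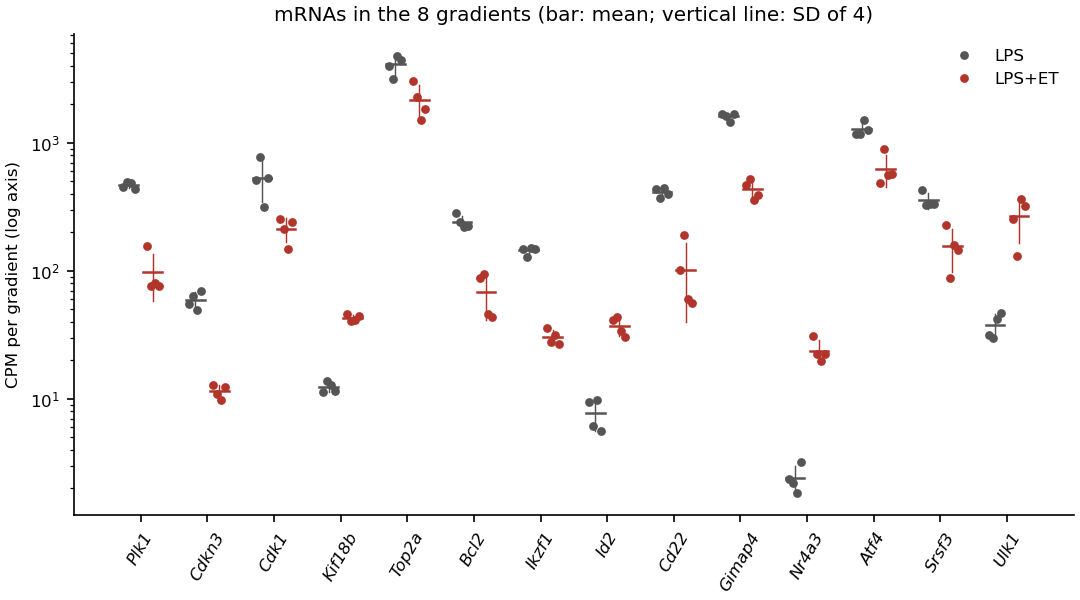
Points are CPM of 14 mRNAs in the 4 LPS (grey) and 4 LPS+ET (red) gradients on a log axis, with the mean as a bar and the SD as a vertical line. The groups do not overlap for any gene shown.

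Apart from the p53 targets, the immediate early genes had the largest share of rises of the classes examined. These genes encode transcription factors of the AP-1, EGR and NR4A families, and the MAPK phosphatases that end their induction. Of 30 tested, 16 were higher and 0 lower (median 0.76), and the count higher was between 13 (without LPS LUL15) and 20 (without pool LUL16) with 1 gradient or pool left out, and the class ranged from 0 to 2 (without pool LUL16) genes lower. The class took 0.108 ± 0.0089% of all counts in LPS and 0.214 ± 0.0349% in LPS+ET. Nr4a3 (ENSMUSG00000028341, chr4:48045152-48086446), an orphan nuclear receptor, had 2.39, 2.21, 1.84 and 3.21 CPM in LPS and 30.8, 22.3, 19.7 and 22.6 CPM in LPS+ET. All LPS+ET gradients were several fold above the highest LPS gradient (log2 fold change 3.16, SE 0.30, adjusted p = 2.31e-06). The AP-1 subunits Fosl2 (1.10 ± 0.479 CPM in LPS and 12.4 ± 2.72 CPM in LPS+ET, log2 fold change 3.32, SE 0.25, adjusted p = 2.7e-07) and Fos (0.44 ± 0.0612 CPM in LPS and 6.71 ± 2.27 CPM in LPS+ET, log2 fold change 3.69, SE 0.38, adjusted p = 4.96e-06) rose from levels near 1 CPM or less. Ier5, the most abundant member, rose less (246 ± 42.3 CPM in LPS and 536 ± 127 CPM in LPS+ET, log2 fold change 0.99, SE 0.16, adjusted p = 0.000245).

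Genes of the integrated stress response, the programme that ATF4 runs when amino acids are short or eIF2α is phosphorylated, did not rise as a class. Of 34 tested, 7 were lower and 1 higher (median -0.43), and the class ranged from 3 (without pool LUL17) to 21 (without pool LUL16) genes lower and from 1 to 2 (without pool LUL16) higher. The pools did not move alike, with medians of -0.42, 0.32, -0.72 and -0.69, and without pool LUL16 21 were lower and 2 higher. Atf4 (ENSMUSG00000042406, chr15:80255183-80257539) had 1165, 1165, 1499 and 1258 CPM in LPS and 488, 895, 563 and 571 CPM in LPS+ET. The LPS+ET gradient of pool LUL16 was the highest of its group, and still below all LPS gradients (log2 fold change -1.17, SE 0.17, adjusted p = 0.000107). The ATF4 target Trib3 fell (-1.30 ± 0.28, adjusted p = 0.0187 without pool LUL17), and Cebpb, a bZIP factor, rose (37.2 ± 11.2 CPM in LPS and 130.3 ± 29.6 CPM in LPS+ET, log2 fold change 1.71, SE 0.14, adjusted p = 7.48e-07). Endoplasmic reticulum chaperones gave 3 lower and 1 higher of 33, and the class ranged from 2 (without LPS LUL15) to 5 (without LPS LUL17) genes lower and from 0 (without LPS LUL15) to 5 (without pool LUL16) higher. Of 11 Myc network genes, 5 were lower and 2 higher, and the class ranged from 4 (without LPS LUL15) to 7 (without pool LUL16) genes lower and from 1 (without LPS LUL15) to 2 higher. Myc, the transcription factor that drives growth, had 43.8, 33.9, 28.3 and 33.1 CPM in LPS and 18.9, 16.4, 8.07 and 6.49 CPM in LPS+ET. It fell in each pool (log2 fold change -1.69, SE 0.21, adjusted p = 2.49e-05), and its antagonist Mxd1 rose (10.7 ± 2.35 CPM in LPS and 30.2 ± 4.33 CPM in LPS+ET, log2 fold change 1.40, SE 0.17, adjusted p = 2.29e-05).

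Many genes of lipid synthesis fell. Of 29 cholesterol genes, most of them targets of the sterol sensor SREBP2, 17 were lower and 3 higher (median -0.85), and the count lower was between 11 (without pool LUL18) and 21 (without LPS LUL16), and the class ranged from 1 (without LPS LUL15) to 3 genes higher. The class took 0.297 ± 0.0035% of all counts in LPS and 0.193 ± 0.0421% in LPS+ET. Pool medians were -0.78, -0.49, -1.09 and -0.97, the smallest fall being that of pool LUL16. Hmgcs1, which makes the precursor of mevalonate, had 165 ± 10.2 CPM in LPS and 56.4 ± 27.2 CPM in LPS+ET (log2 fold change -1.80, SE 0.20, adjusted p = 1.18e-05), and Sqle, which epoxidises squalene, had 173 ± 32.8 CPM in LPS and 62.8 ± 9.95 CPM in LPS+ET (log2 fold change -1.59, SE 0.16, adjusted p = 4.54e-06). Cyp51, the most abundant member, was not called in the fit of all pools (log2 fold change -0.50, SE 0.15, adjusted p = 0.0183, and -0.71 with adjusted p = 8.7e-06 without pool LUL16). Of 18 fatty acid synthesis genes, 9 were lower and 1 higher, and the count lower was between 4 (without pool LUL18) and 13 (without pool LUL16), and the class ranged from 0 (without pool LUL15) to 1 genes higher. Fasn, the fatty acid synthase, had 261 ± 52.6 CPM in LPS and 114 ± 43.2 CPM in LPS+ET (log2 fold change -1.40, SE 0.23, adjusted p = 0.000302), and Acaca, the carboxylase before it, had 23 ± 9.79 CPM in LPS and 12.7 ± 7.89 CPM in LPS+ET (log2 fold change -1.09, SE 0.21, adjusted p = 0.000848, and 0.0164 without pool LUL18).

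Several classes of RNA handling had members called lower, with few members higher. Over all genes tested 12.8% were lower, and in groups 8, 9 and 10 by mean CPM 18.2%, 21.3% and 20.6%. Splicing factors, at 32.7%, lay above these shares. Genes for AU-rich element and stress granule proteins (21.2%) and ribosome biogenesis genes (19.2%) were near those of the abundant groups. The part of abundance in the counts of these classes was not tested. Of 49 SR and hnRNP splicing factors, 16 were lower and 0 higher (median -0.35), and the count lower was between 9 (without pool LUL15) and 21 (without pool LUL16), and the class ranged from 0 to 3 (without pool LUL16) genes higher. Srsf3, an SR protein that also exports mRNA, had 428, 328, 332 and 333 CPM in LPS and 229, 88.2, 159 and 145 CPM in LPS+ET. LPS+ET lay below LPS in each pool (log2 fold change -1.38, SE 0.16, adjusted p = 1.41e-05). Hnrnpd (AUF1), which binds AU-rich elements, had 423 ± 61.4 CPM in LPS and 185 ± 19.9 CPM in LPS+ET (log2 fold change -1.30, SE 0.12, adjusted p = 2.53e-06). Of 33 genes for AU-rich element and stress granule proteins, 7 were lower and 2 higher, and the class ranged from 5 (without pool LUL15) to 15 (without pool LUL16) genes lower and from 1 (without LPS LUL15) to 4 (without pool LUL16) higher. Caprin1, a stress granule component, was lower (-1.04 ± 0.17) and Rc3h2 (roquin-2), which promotes mRNA decay, was higher (1.66 ± 0.15). Of 73 ribosome biogenesis genes, 14 were lower and 1 higher, and the count lower was between 5 (without pool LUL17) and 24 (without pool LUL16), and the class ranged from 0 (without LPS LUL15) to 4 (without pool LUL16) genes higher. Wdr43 (-1.02 ± 0.14) and Nop58 (-0.90 ± 0.15), both of the small subunit processome, were among them. Of 40 nuclear pore and transport genes, 10 were lower and 0 higher, between 1 (without pool LUL18) and 15 (without pool LUL16) in the leave-one-out fits.

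Of the translation machinery, cytosolic ribosomal proteins and initiation and elongation factors had few calls in the fit of all pools. Of 71 cytosolic ribosomal protein genes, 1 was higher, the p53 target Rps27l (log2 fold change 1.17, SE 0.17, adjusted p = 9.28e-05), and 0 were lower. This depended on pool LUL16, in which the class median was 0.26, against -0.31, -0.48 and -0.26 in LUL15, LUL17 and LUL18. Without that pool 32 ribosomal protein genes were lower and the median was -0.36. Where each fraction was given equal weight, 4 were higher and 1 lower, so no direction is given for the family. The class of initiation and elongation factors ranged from 1 (without pool LUL17) to 11 (without pool LUL16) genes lower and from 0 to 2 (without pool LUL16) higher. Of its 54 genes, 5 were lower (9.26%, against 12.8% of all genes) and 0 higher. They included Eif4e, which binds the mRNA cap (77.5 ± 13.9 CPM in LPS and 46.8 ± 9.88 CPM in LPS+ET, log2 fold change -0.84, SE 0.14, adjusted p = 0.000302). Of 36 aminoacyl-tRNA synthetase genes, 7 were lower (19.4%, above the 12.8% of all genes) and 0 higher, led by Farsb (-1.06 ± 0.16) and Fars2 (-1.06 ± 0.18). The class ranged from 4 (without LPS LUL18) to 17 (without pool LUL16) genes lower. The part of abundance in this count was not tested.

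Energy metabolism also had few calls in the fit of all pools. Of 76 nuclear genes of the respiratory chain, 2 were higher and 1 lower, and of 20 tricarboxylic acid cycle genes 0 were called, and the respiratory chain ranged from 0 (without LPS LUL15) to 7 (without pool LUL16) genes lower and from 1 (without LPS LUL18) to 8 (without pool LUL16) higher. Cox6b2, a cytochrome oxidase subunit known from testis, had the largest rise (5.30 ± 0.801 CPM in LPS and 63.1 ± 13.7 CPM in LPS+ET, log2 fold change 3.41, SE 0.20, adjusted p = 2.42e-08). Glycolysis and hypoxia genes gave 4 higher and 2 lower of 32, but pool LUL16 went against the others, with medians of -0.19, 0.84, -0.49 and -0.57, and the class ranged from 0 (without LPS LUL15) to 16 (without pool LUL16) genes lower and from 2 (without pool LUL15) to 4 higher. Without pool LUL16, 16 were lower and 4 higher. Ldhb, a lactate dehydrogenase subunit, rose (0.496 ± 0.123 CPM in LPS and 13.7 ± 6.65 CPM in LPS+ET, log2 fold change 4.46, SE 0.38, adjusted p = 9.19e-07), and Pkm, the pyruvate kinase and most abundant member, was not called (-0.02 ± 0.26). The proteasome showed the reverse pattern, with a median of -0.91 in pool LUL16 and of 0.03, 0.25 and 0.17 in the others, and 5 genes lower and 1 higher of 31, and the class ranged from 1 (without pool LUL18) to 6 (without pool LUL16) genes lower and from 0 (without pool LUL15) to 8 (without pool LUL16) higher.

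**Figure D5:**
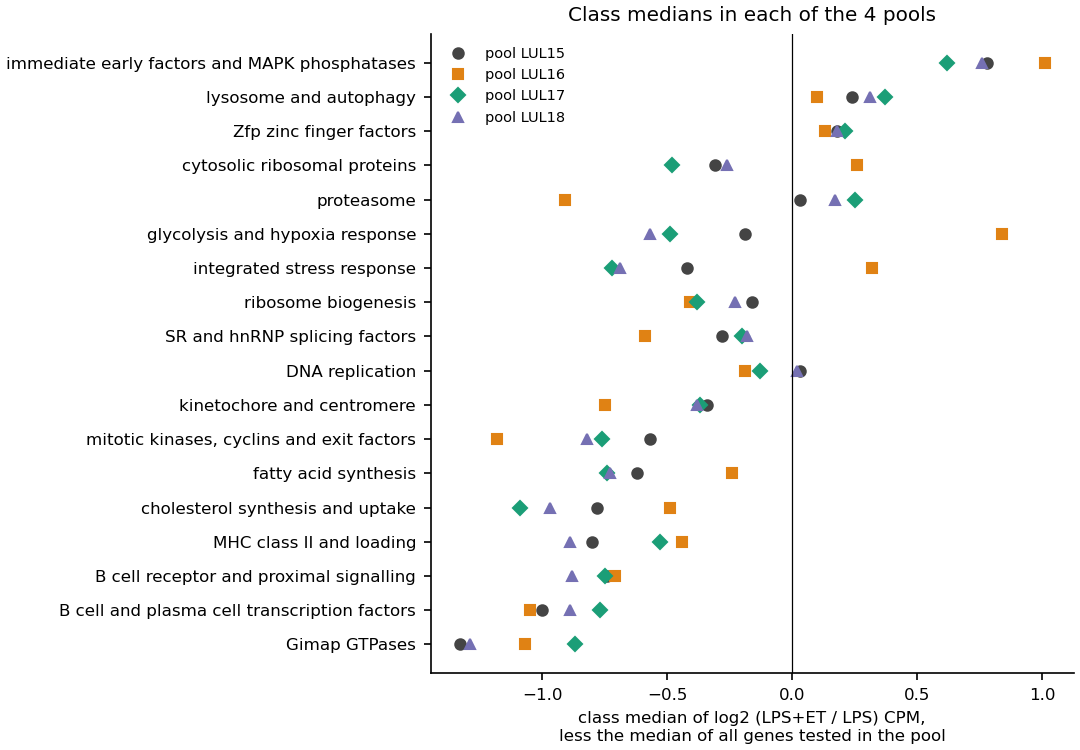
Points are class medians of the log2 ratio of LPS+ET to LPS in CPM, less the median of all tested genes of the pool, for 18 classes and 4 pools. Pool LUL16 (orange squares) lies on the other side of zero from the rest for ribosomal proteins, proteasome, glycolysis and integrated stress response, and with the rest for B cell, mitotic and lipid classes.

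Lysosome and autophagy genes also had more rises than falls, at 14 higher and 2 lower of 48 (median 0.28), and the class ranged from 1 (without LPS LUL15) to 4 (without LPS LUL16) genes lower. The count higher was between 7 (without pool LUL17) and 21 (without pool LUL16). Ulk1 (ENSMUSG00000029512, chr5:110784487-110810096), the kinase that starts autophagy, had 31.4, 29.7, 41.9 and 46.9 CPM in LPS and 252, 129.7, 363 and 323 CPM in LPS+ET. Each pool rose, pool LUL16 least (log2 fold change 2.63, SE 0.19, adjusted p = 2.51e-07). Wipi1, which acts at the forming autophagosome, had 6.71 ± 3.81 CPM in LPS and 32.6 ± 16.3 CPM in LPS+ET (log2 fold change 2.16, SE 0.23, adjusted p = 7.3e-06). Ctsl, a lysosomal protease, was higher (1.75 ± 0.28), and Grn, the most abundant member, was not called (-0.31 ± 0.14). Of 29 redox genes, 3 were higher and 2 lower, and the class ranged from 0 (without LPS LUL15) to 3 (without pool LUL16) genes lower and from 2 (without LPS LUL15) to 11 (without pool LUL16) higher. Hmox1, which breaks down haem, had 40 ± 7.76 CPM in LPS and 159.8 ± 28.6 CPM in LPS+ET (log2 fold change 1.90, SE 0.20, adjusted p = 6.59e-06), and Gss, glutathione synthetase, had 9.03 ± 1.31 CPM in LPS and 48.5 ± 17.8 CPM in LPS+ET (log2 fold change 2.21, SE 0.22, adjusted p = 3.03e-06). Of 34 chaperone genes, 5 were higher and 3 lower, and the inducible Hspa1a rose from 0.277 ± 0.21 to 10.3 ± 2.77 CPM (log2 fold change 5.05, SE 0.32, adjusted p = 6.32e-08), and the class ranged from 0 (without LPS+ET LUL17) to 7 (without pool LUL16) genes lower and from 4 (without LPS LUL15) to 6 (without LPS LUL16) higher.

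Zinc finger factors named Zfp were the largest family examined. Of 284 tested out of 338 in the table, 52 were higher (18.3%) and 14 lower (4.93%), with a median of 0.22. Over all genes tested the shares were 13.9% and 12.8%. In group 3 of the 10 groups by mean CPM (2.42 to 4.92 CPM) they were 17.9% and 6.58%, with a median of 0.21. The part of abundance in the Zfp counts was not tested. The class ranged from 7 (without pool LUL15) to 30 (without pool LUL16) genes lower. The count higher was between 28 (without pool LUL18) and 70 (without pool LUL16). Of 63 chromatin modifier genes, 12 were lower and 5 higher, and the class ranged from 2 (without pool LUL18) to 22 (without pool LUL16) genes lower and from 3 (without pool LUL15) to 6 (without LPS LUL18) higher. They included Arid1b, a subunit of the BAF remodelling complex (-1.58 ± 0.18), and Cbx5 (HP1α, -1.40 ± 0.15), and the demethylase Kdm6b was higher (1.43 ± 0.16). Of 53 actin cytoskeleton genes, 14 were lower and 1 higher, between 7 (without pool LUL17) and 24 (without pool LUL16) lower in the leave-one-out fits, whereas Actb was not called (0.02 ± 0.18), and the class ranged from 0 (without LPS LUL15) to 3 (without pool LUL16) genes higher. Of 19 clock genes, 3 were higher and 3 lower, and Tef (2.33 ± 0.15) rose and Per1 (-1.63 ± 0.18) fell. Both counts ranged from 2 (without pool LUL15) to 4 (without LPS LUL16).

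The remaining classes had few calls or calls in both directions. There were 4 higher and 5 lower of 71 mitochondrial ribosomal protein genes, 4 and 5 of 33 nucleotide synthesis genes, 2 and 2 of 32 genes of mTOR and its regulators, and 1 and 2 of 41 secretion genes. There were 3 and 4 of 16 adhesion genes, 3 and 4 of 19 tubulin genes, 2 and 1 of 12 polyamine and iron genes, and 0 of 7 mitochondrially encoded mRNAs. Without pool LUL16 they became 12 higher and 11 lower for mitochondrial ribosomal protein, 7 higher and 11 lower for nucleotide synthesis, 4 higher and 6 lower for mTOR, 8 higher and 3 lower for secretion, 4 higher and 5 lower for adhesion, 4 higher and 7 lower for tubulin, 3 higher and 3 lower for polyamine and iron and 1 higher and 2 lower for mitochondrially encoded genes. These were the highest counts of the leave-one-out fits. The lowest counts, higher and lower, were 1 and 1 for mitochondrial ribosomal protein, and 1 and 3 for nucleotide synthesis. They were 1 and 1 for mTOR, 0 and 0 for secretion, and 2 and 2 for adhesion. For tubulin they were 1 and 1, for polyamine and iron 2 and 0, and for mitochondrially encoded genes 0 and 0. Trp53, the gene of p53 itself, had 284 ± 71.1 CPM in LPS and 429 ± 77.4 CPM in LPS+ET and was not called (log2 fold change 0.49, SE 0.14, adjusted p = 0.0115, and 0.52 with adjusted p = 0.000601 without pool LUL16).

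Outside all lists, the largest changes among protein coding genes with at least 10 CPM in the higher group were rises from near 0. Notch3, a Notch receptor, had 0.29, 0.0515, 0.108 and 0.153 CPM in LPS and 28.6, 18.3, 18.5 and 26.1 CPM in LPS+ET (log2 fold change 7.14, SE 0.38, adjusted p = 1.12e-08). Gal, the neuropeptide galanin, had 0.217, 0, 0.217 and 0 CPM in LPS and 19.1, 2.03, 20.5 and 20.7 CPM in LPS+ET, with the LPS+ET gradient of pool LUL16 far below the other treated gradients (log2 fold change 6.98, SE 0.44, adjusted p = 5.25e-08). Tnfsf4 (OX40 ligand), a costimulatory ligand for T cells counted mainly at a site outside its annotated gene, rose to 13.2 ± 6.88 CPM (log2 fold change 6.24, SE 0.37, adjusted p = 3.28e-08), and Epha2, an ephrin receptor, to 13.4 ± 7.40 CPM (log2 fold change 5.66, SE 0.31, adjusted p = 1.66e-08). Their levels in LPS, 0.161 and 0.253 CPM, rest on few counts per gradient, so the size of these fold changes is imprecise. Other rises named by this rule were 1700007K13Rik, 9530053A07Rik, Cnga3, Cyp4f39, Sulf2, Slc4a11 and Micall2.

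The largest falls outside the lists were smaller. Apobec3, a cytidine deaminase of antiviral defence, had 345, 298, 271 and 293 CPM in LPS and 91.9, 89.5, 63.4 and 60 CPM in LPS+ET. Its groups were wide apart (log2 fold change -2.12, SE 0.15, adjusted p = 2e-07). Hdac9, a class IIa histone deacetylase, had 150.2 ± 36.9 CPM in LPS and 34.3 ± 8.32 CPM in LPS+ET (log2 fold change -2.24, SE 0.21, adjusted p = 1.76e-06), Myo1e, a membrane-linked myosin, had 546 ± 49.0 CPM in LPS and 167 ± 68.8 CPM in LPS+ET (log2 fold change -1.93, SE 0.25, adjusted p = 3.34e-05), and Uvrag, an autophagy and membrane traffic factor, had 111 ± 5.13 CPM in LPS and 31.8 ± 8.04 CPM in LPS+ET (log2 fold change -1.96, SE 0.18, adjusted p = 1.76e-06). Bcl11a, named above, also belonged here, and the others were 1110032F04Rik, Adap1, Arhgap33, Arhgef39, Chst3, Srpk3 and Tspyl3.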

How the data were processed

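3′ end libraries were made from RNA of single sucrose gradient fractions. The authors removed PCR duplicates by random barcode bases, trimmed A tracts, aligned tags to GRCm38 (TopHat2 2.0.12 and HTSeq are named in the submitters' processing notes) and summed poly(A)-site tags per Ensembl gene. The deposited table holds unnormalized counts of 19600 genes. Replicates and fractions were not pooled, and deeply sequenced fractions weigh more in a sum.

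Of the 104 columns, 52 matched 1 labelled sample and 52 (pools LUL16 and LUL18) a treatment and fraction only. Fractions 4 to 16 of a gradient were added up (replicate correlations of log2 CPM were 0.882 to 0.989). edgeR 4.0.16 (TMM, filterByExpr, quasi-likelihood F-test, two-sided) was fitted to all 12 gradients with treatment and pool as terms, leaving 6 residual degrees of freedom. A call needed a value under 0.01 after Benjamini-Hochberg adjustment, as in the study. Pools pair the gradients by column name. Deviations from treatment means correlated at 0.353 to 0.723 between LPS and LPS+ET of 1 pool and at -0.605 to 0.380 between pools. The fit was tested on simulated data with known changes.

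Class members and gene lists were chosen with earlier results of these data known. Named genes were, per class, the 3 called members with the largest change (5 CPM or more, 4 pools alike) and the most abundant member, plus the 12 largest rises and falls outside all lists (10 CPM or more), Top2a, Top2b, Trp53, Myc and Igkc; the text gives a selection, and some genes are not reported here. Pool ratios add 0.5 CPM. Promoters came from RefSeq on GRCm38.p6, and gene positions from the deposited table. R 4.3.3, DESeq2 1.42.0, limma 3.58.1, Python 3.11.15 and matplotlib 3.10.9 were used.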

Additional observations from a re-analysis of the deposited data

Results flagged for a closer look

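Single gradients that lay apart from the other 3 of their group were looked for by Dixon's gap test among the groups of the named genes and of 11 class shares. Chance flags about 1 in 20 groups, and 14 of 276 were flagged, 7 of them in pool LUL16. Cyp51 had 327 CPM in the LPS+ET gradient of pool LUL16, and 217 to 227 CPM in the others. Dffb had 31.9 CPM in the LPS+ET gradient of pool LUL16, and 132 to 149.8 CPM in the others. Fcer2a had 69.2 CPM in the LPS gradient of pool LUL18, and 55.9 to 57.5 CPM in the others. Gal had 2.03 CPM in the LPS+ET gradient of pool LUL16, and 19.1 to 20.7 CPM in the others. Igtp had 144 CPM in the LPS+ET gradient of pool LUL16, and 254 to 266 CPM in the others. Ikzf1 had 129 CPM in the LPS gradient of pool LUL16, and 149 to 151 CPM in the others. Kifc1 had 244 CPM in the LPS+ET gradient of pool LUL15, and 277 to 282 CPM in the others. Plk1 had 156 CPM in the LPS+ET gradient of pool LUL15, and 76.0 to 81.0 CPM in the others. Slc4a11 had 33.6 CPM in the LPS+ET gradient of pool LUL15, and 24.3 to 24.8 CPM in the others. Srsf3 had 428 CPM in the LPS gradient of pool LUL15, and 328 to 333 CPM in the others. Sulf2 had 20.8 CPM in the LPS+ET gradient of pool LUL16, and 35.2 to 36.9 CPM in the others. Tap1 had 765 CPM in the LPS+ET gradient of pool LUL17, and 545 to 577 CPM in the others. Tef had 159 CPM in the LPS+ET gradient of pool LUL15, and 127 to 129 CPM in the others. Trib3 had 14.4 CPM in the LPS+ET gradient of pool LUL16, and 6.24 to 7.06 CPM in the others.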

How the results depend on the processing

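No called result turned its direction under the alternatives run, while class medians moved by more than their spread between pools in 88 comparisons and stayed within it in 1090. The pairing by pool raised the number of calls: without the replicate block 1618 genes were called (1005 higher, 613 lower), and with the 8 compared gradients and no block 1652 (1034 higher, 618 lower). All 1618 were among the 3403. With equal weight for each fraction 940 genes were called lower, and 61.9% of calls were higher, against 52.1%; without the block the share was 62.1%. At an adjusted p under 0.05, 5165 genes were called, 2558 of them lower. Leaving out 1 gradient or 1 pool gave between 1849 and 5299 calls, between 1063 and 2572 higher and between 786 and 2727 lower. The highest counts were those without pool LUL16 and the lowest those without pool LUL18. The calls under DESeq2 size factors (3408), DESeq2's own test (3910), no expression filter (3821) and the 8 gradients with the block (2643) stayed within 1.5 times.

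Without the block, genes called lower numbered 16 among mitotic kinases and cyclins, 14 in B cell receptor signalling, 12 among B cell factors, 8 in the cholesterol class and 5 among splicing factors, and 11 immediate early and 7 lysosome genes were called higher. Of the genes named by rule, 197 were called, and 63 lost the call without the block, 0 with DESeq2 size factors. With equal weight for each fraction, 30 lost it, among them Acaca, Ctsl, Fars2, Rfc4, Top2a and Trib3 (adjusted p between 0.0145 and 0.0424). Depth limits genes near 1 CPM.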

Other observations

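Among abundant genes, falls were more frequent in long genes, a pattern looked at after values had been seen. Protein coding genes at or above the median mean CPM were ordered by the genomic span of the gene and split into 10 groups of equal size. In the group of the longest genes, from 88.7 kb, 39% of 585 were called lower and 6.15% higher. The share called lower in the 7 groups of shorter genes, up to 37.4 kb, lay between 12.0 and 16.6%. In the longest group it was 19.3% without the replicate block, 56.8% without pool LUL16 and 26.7% with equal weight for each fraction. In the 7 groups of shorter genes it was 3.59 to 6.67%, 19.8 to 35.9% and 9.06 to 11.5% in these fits. Without pool LUL16 the 35.9% was that of the shortest group. Among genes below the median mean CPM, this was not seen, with 7.86% lower in the longest group and 9.40% in the shortest (3.59% and 20.2% higher). The median mean CPM of the longest group among the abundant genes was 37.1, against 72.4 in the shortest. Span and membership of the classes were not separated, and the part of either in the falls was not tested.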
